A study of Homo sapiens with 15 samples.

Results

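DSP, C1S, C1R, SORBS2, FRG1 and TERT are human genes that earlier literature reported to respond to telomere length over long distances along the chromosome. They were found by symbol among the genes of the count table, and all 6 are among its 57272 genes. The counts came from RNA-seq of MRC-5, a widely used fibroblast line derived from fetal lung, grown at 5% oxygen. The 15 libraries cover 5 groups of 3 replicates. Young cells made up 3 groups, collected at population doubling (PD) 30. Of these, 1 group carried the empty lentiviral vector pWPIR-GFP with a control siRNA, another carried pWPIR-GFP-TRF2, which expresses the telomere protein TRF2, with a control siRNA, and the third an siRNA against LMNB1 (siLMNB1) together with the empty vector, which the column names of the count table give. The other groups were senescent cells, infected with the empty or the TRF2 virus and given the control siRNA after growth had reached a plateau. The labels place this infection at a pre-senescent stage and the study's methods many population doublings before senescence, whereas the young cells carried the virus for days. By the methods, the senescent cells with TRF2 were also collected at a later population doubling than those with the empty vector, so TRF2 and population doubling cannot be told apart among the senescent groups. In bulk RNA of this kind, fewer cells that express a gene and less RNA per cell cannot be told apart. The study describes triplicates and calls replicates biological, without saying whether they were separate cultures, so the p-values measure the spread between these libraries. All 6 senescent libraries, and 0 of the 9 young ones, are labelled as a reanalysis of an earlier deposit, so senescence and deposit cannot be told apart.

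Telomere position effect is the silencing of genes near a telomere. Over long distance, the chromosome end is thought to fold back and touch genes several megabases away, with TRF2 helping to hold the loop, and the contact is lost as telomeres shorten, which can free such a gene from silencing or remove an activating contact. Lamin B1, the product of LMNB1, is a filament protein of the nuclear lamina, where silent chromatin is held. Of the members, C1R and C1S encode the proteases of the first complement component, DSP encodes desmoplakin, which ties intermediate filaments to desmosomes, FRG1 is a gene of the region linked with facioscapulohumeral muscular dystrophy, TERT encodes the catalytic subunit of telomerase, and SORBS2 encodes an adaptor of the actin cytoskeleton.

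The genes lie at very different distances from their chromosome ends in GENCODE 44 (GRCh38). FRG1 is the closest, on chromosome 4 from 189940870 to 189963202 (plus strand), 0.251 Mb from the end of 4q. TERT is on chromosome 5 from 1253147 to 1295068 (minus strand), 1.25 Mb from the end of 5p. SORBS2 is on chromosome 4 from 185585444 to 185956652 (minus strand), 4.26 Mb from the end of 4q. C1S is on chromosome 12 from 6988259 to 7071032 (plus strand) and C1R from 7080214 to 7092540 (minus strand), 6.99 and 7.08 Mb from the end of 12p. DSP is on chromosome 6 from 7541338 to 7586714 (plus strand), 7.54 Mb from the end of 6p. Of the exonic bases of C1R, 672 (11.6%) also belong to C1RL on the same strand, and reads from them cannot be assigned to one gene. The corresponding shares were 2.76% for C1S, 1.79% for TERT, 1.41% for SORBS2, 0.595% for DSP, with its antisense RNA, and 0% for FRG1.

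TERT was the only one of the 6 with telomere-type repeats nearby, counted as at least 2 TTAGGG units in tandem on either strand of the GRCh38 reference within 100 kb. It had 4 such runs, none of them inside the gene, while the other 5 genes had 0. Of 15744 genes tested for expression that have a position on a chromosome, 7.23% had at least 1.

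Promoter sequences came from RefSeq (GRCh38.p14), which matched 5 of the 6 genes with 13 start sites, and no entry was found for C1S. SORBS2 alone has 8 of the 13, so counts of starts are not counts of genes. A single TTAGGG unit on either strand was present in the 250 bases before the start at 2 of these 13 starts, 1 of C1R and 1 of SORBS2, against 7.94% of all 35116 promoters. The C1R stretch upstream of the annotated gene is printed with that unit in capitals, since C1R and C1S were the members with the largest changes after siLMNB1.
chr12:7092541-7092695 (GRCh38.p14, minus strand): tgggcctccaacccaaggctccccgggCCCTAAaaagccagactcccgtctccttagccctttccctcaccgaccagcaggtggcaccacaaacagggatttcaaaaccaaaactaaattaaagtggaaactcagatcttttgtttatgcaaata
The interferon-type motif TTCNNNGAA (the GAS motif) was found at 3 of the 13 starts, 1 of C1R and the others of SORBS2, against 6.57% of all promoters. The GC box GGGCGG was found at 1 start each of DSP, FRG1 and TERT, against 42.6%. The motifs GAAANNGAAA (ISRE) and TATAAA had no match at the 13 starts, against 3.02% and 10.7% of all promoters, and the E-box CACGTG had 1, of TERT, against 6.345%. These are letter matches on either strand within the window, and the motifs can overlap.

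Total counts were 26725885 to 43116046 per library. LMNB1 was at 58.6 to 61.0 CPM (counts scaled to a common library size with TMM) in young cells with the empty vector and at 2.36 to 2.91 with siLMNB1. It was at 4.60 to 5.65 in senescent cells with the empty vector. TERF2, which encodes TRF2, was at 21.9 to 25.5 CPM in young cells with the empty vector, at 128, 307 and 149 in young replicates 1 to 3 with TRF2 and at 210 to 285 in senescent cells with TRF2. The 9 fibroblast markers summed to 20138 to 33683 CPM in every library, and the markers of epithelium, endothelium, leukocytes and muscle to at most 16.3, 4.21, 3.50 and 0.804 CPM. Epithelial markers summed to 1.59 to 1.94 CPM in the senescent and 1.96 to 2.13 in the young libraries with TRF2. With the empty vector they summed to 1.93 to 3.01 in senescent and 2.53 to 16.3 in young cells, and to 2.03 to 3.38 with siLMNB1. KRT5 was uneven among the young libraries with the empty vector (2.43 ± 4.21 CPM, SD, n = 3). The part of epithelial cells in the values of DSP, a desmosomal gene, was not tested.

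The 2 deposits differed in more than senescence. Against the mean of the young control libraries, a gene's log2 count was higher by 0.460 to 0.823 for each 10 points of GC percent in the senescent libraries, most in replicate 3 with the empty vector, and by −0.00633 to 0.134 in the young ones. Of 103 protein-coding genes with a mean of at least 10 CPM with over 50% of their exonic bases in common with another gene, 36 differed by more than 3 on the log2 scale in senescence with the empty vector, against 0.910% of the 4287 genes that share none. With siLMNB1 in young cells, 0 of the 103 differed by that much. ALDOA, an enzyme of glycolysis named after its values were seen, was at 823 to 1136 CPM in the 9 young libraries and at 1.60 to 3.44 in the 6 senescent ones. The part of such counting differences in the senescence comparisons of C1R and C1S was not tested. FRG1 shares no exonic bases with other genes and DSP few.

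Each gene kept by the filter was compared between groups with edgeR's quasi-likelihood test, and p-values were adjusted by Benjamini-Hochberg over the 15799 genes kept. An adjusted p below 0.05 is called passing the test, and a DEG had in addition a log2 fold change of at least 1, or 0.58 with siLMNB1. Of the 6 members 4 were kept, C1S, C1R, DSP and FRG1. TERT and SORBS2 were not, because almost no reads fell on them in any group. The comparisons share libraries: the young cells with the empty vector serve as control in 3 of them, and both groups with TRF2 and the senescent cells with the empty vector enter 2 each.

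**Figure D1:**
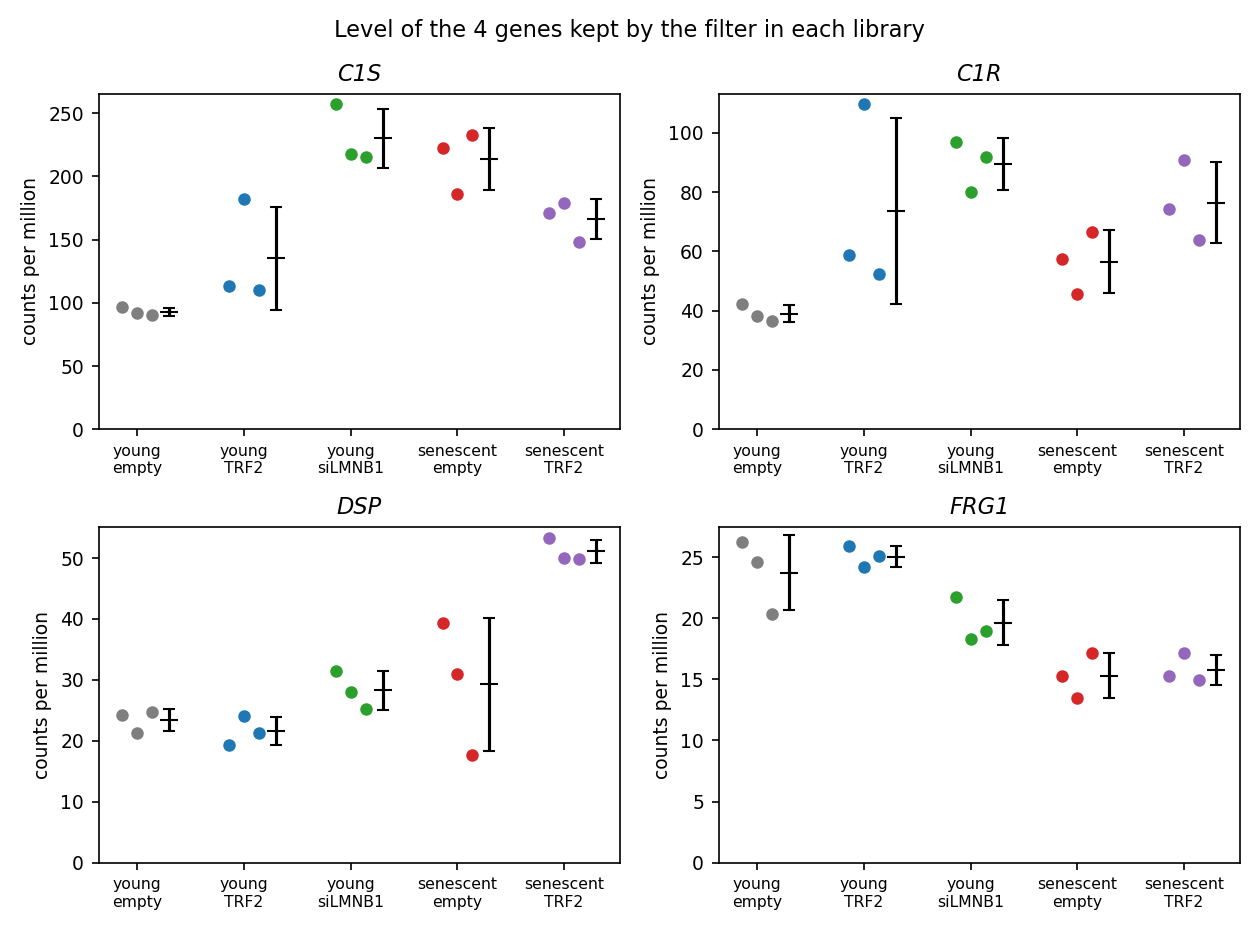
CPM (linear axis from 0) of C1S, C1R, DSP and FRG1 in each of the 15 libraries, with points in the order of replicates 1 to 3 and the bar beside them showing mean and SD (n = 3). C1S and C1R were lowest in young cells with the empty vector, DSP was highest in senescent cells with TRF2 and FRG1 was lowest in the 2 senescent groups.

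Within a library, levels can be compared between genes only per length. Per kilobase of exonic sequence, young cells with the empty vector had 14.6 ± 1.89 CPM of FRG1 (mean ± SD, n = 3), 11.2 ± 0.381 of C1S, 6.73 of C1R (6.31 to 7.28) and 1.72 ± 0.135 of DSP, and the ranges of the 4 genes did not overlap. In senescent cells with the empty vector the order was C1S (25.8 ± 2.96), C1R (9.74 ± 1.82), FRG1 (9.42 ± 1.13) and DSP (2.15 ± 0.800), where the ranges of C1R and FRG1 overlapped.

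C1S, the complement protease that cleaves C4 and C2, had the largest senescence-associated rise among the members with the empty vector. Its levels were 96.5, 92.2 and 90.4 CPM in young replicates 1 to 3 and 223, 186 and 233 in senescent ones. All 3 senescent libraries were above all 3 young ones, by 2.30-fold (log2 fold change 1.20 ± 0.158 SE, adjusted p = 5.9e-06), and C1S was a DEG. With TRF2, C1S was at 114, 182 and 110 CPM in young and 171, 179 and 148 in senescent cells. These ranges overlapped, and the difference did not pass the test (log2 fold change 0.30, 95% interval −0.03 to 0.63, adjusted p = 0.112). Without young replicate 2 with TRF2, the library with the highest C1S and the highest TERF2 of that group, the difference was 0.57 and passed (adjusted p = 0.00077).

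C1S also rose after the knock-down of LMNB1. Young cells with siLMNB1 had 257, 218 and 216 CPM, all above the 3 control libraries, and C1S was 2.47-fold higher than in the control (log2 fold change 1.31 ± 0.158, adjusted p = 1.3e-05). It was a DEG there too. In the order of group means, siLMNB1 (230 ± 23.4 CPM) and senescent cells with the empty vector (214 ± 24.6) overlapped, senescent cells with TRF2 (166 ± 15.8) lay apart below them, overlapping young cells with TRF2 (135 ± 40.5), and the young control (93.0 ± 3.16) lay below all of these.

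C1R, the protease that activates C1S, had a smaller log2 fold change in senescence with the empty vector, though its difference from C1S was not tested. It was at 42.3, 38.3 and 36.6 CPM in young and 57.6, 45.5 and 66.6 in senescent cells with the empty vector. The senescent libraries were all above the young ones, and the log2 fold change of 0.53 ± 0.220 passed the test narrowly (adjusted p = 0.0434). The call was lost with offsets for the GC percent and length of genes (0.27, adjusted p = 0.280) and when any of 11 of the 15 libraries was left out, the value lying between 0.38 and 0.67 over the 15 refits. Without senescent replicate 3 with the empty vector it was 0.38 (adjusted p = 0.136). With TRF2, C1R was at 58.8, 110 and 52.5 CPM in young and 74.4, 91.0 and 63.9 in senescent cells. The ranges overlapped and the log2 fold change was 0.05 (95% interval −0.41 to 0.51, adjusted p = 0.850), or 0.45 without young replicate 2 (adjusted p = 0.0291).

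With siLMNB1, C1R rose 2.29-fold, to 96.8, 79.9 and 91.8 CPM, above every control library (log2 fold change 1.20 ± 0.221, adjusted p = 6.3e-04). C1R and C1S were thus DEGs with siLMNB1, and they stood above 94.6% and 95.5% of the tested genes in that comparison. C1RL, the neighbour that shares exonic bases with C1R, rose by a log2 fold change of 0.87 with siLMNB1 and was at −0.13 (adjusted p = 0.488) in senescence with the empty vector.

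Counts of members are read against the share of all tested genes that passed in the same direction. In senescence with the empty vector, 2 of the 4 tested members were higher and 1 lower, where 32.7% of all tested genes were higher and 31.9% lower, and 1 was an upregulated DEG, as were 16.7% of all genes. With TRF2, 1 was higher (28.2% of all genes) and 1 lower (30.1%), and 1 was an upregulated DEG (11.9%). With siLMNB1, 2 were higher (16.4%), none lower (16.1%), and both were upregulated DEGs (10.3%). The counts in the gene lists and in the windows around members described next are set against the same shares of higher and lower genes. The median log2 fold change over all tested genes was 0.02 in senescence with the empty vector, −0.02 with TRF2 and 0.04 with siLMNB1.

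**Figure D2:**
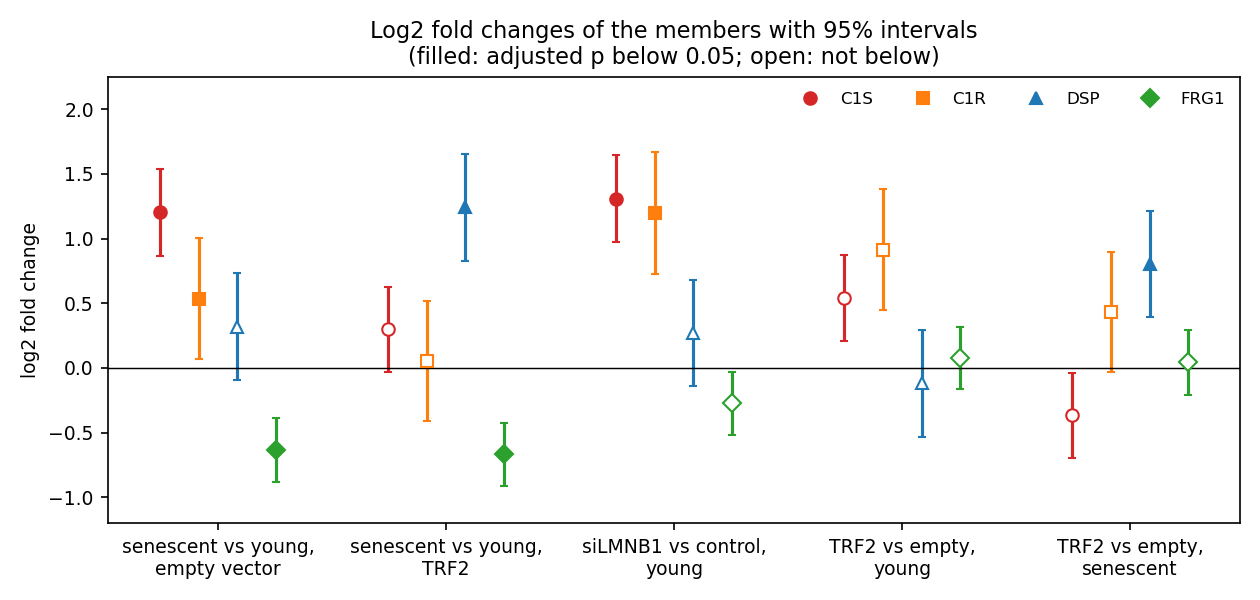
Log2 fold changes of C1S, C1R, DSP and FRG1 in the 5 comparisons, with 95% intervals from edgeR's standard errors. Filled symbols passed the test (adjusted p below 0.05), and FRG1 lies below 0 in the comparisons of senescent with young cells while C1S and C1R lie above 1 with siLMNB1.

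With TRF2 in young cells, none of the 4 members passed at the adjusted threshold. By edgeR 0 passed, although C1R (log2 fold change 0.92 ± 0.221, adjusted p = 0.138) and C1S (0.54 ± 0.156, adjusted p = 0.223) had an unadjusted p below 0.05. DESeq2 called 1, C1R, where it called 138 of 15843 genes in all. All 3 young libraries with TRF2 were above all 3 with the empty vector for both genes. Few genes passed in this comparison at all, 0.152% of those tested being higher and 0.0253% lower. That total of 28 genes was unstable: it was 474 with only the libraries compared, and with 1 library left out it ranged from 1 (without young replicate 1 with TRF2, among others) to 320 (without senescent replicate 3 with the empty vector). Without young replicate 2 with TRF2, the log2 fold changes were 0.51 for C1R and 0.27 for C1S. Senescent replicate 3 with the empty vector is in neither group compared. It enters this test through the shared estimate of spread, the filter and the normalization, and without it C1R passed (0.90, adjusted p = 0.0241). In senescent cells, where 4.87% of tested genes were higher with TRF2 and 6.41% lower, 1 member passed and was higher, DSP. That total of 1782 genes was 2 with only the libraries compared, 722 without senescent replicate 1 with TRF2 and 4411 without senescent replicate 1 with the empty vector. There C1S was at −0.37 (95% interval −0.69 to −0.04, adjusted p = 0.137), its 3 libraries with TRF2 all below the 3 with the empty vector, and it passed without young replicate 2 with TRF2 (adjusted p = 0.0351). There C1R was at 0.43 (95% interval −0.03 to 0.90, adjusted p = 0.205).

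The ratio of C1R to C1S counts within a library describes the balance of the pair. It was 0.438, 0.415 and 0.405 in young cells with the empty vector and 0.376, 0.367 and 0.426 with siLMNB1, overlapping ranges. In senescent cells with the empty vector it was 0.258, 0.244 and 0.286, below every other library. In cells with TRF2 it was 0.517, 0.603 and 0.478 when young and 0.436, 0.509 and 0.430 when senescent. The ratio was not tested.

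**Figure D3:**
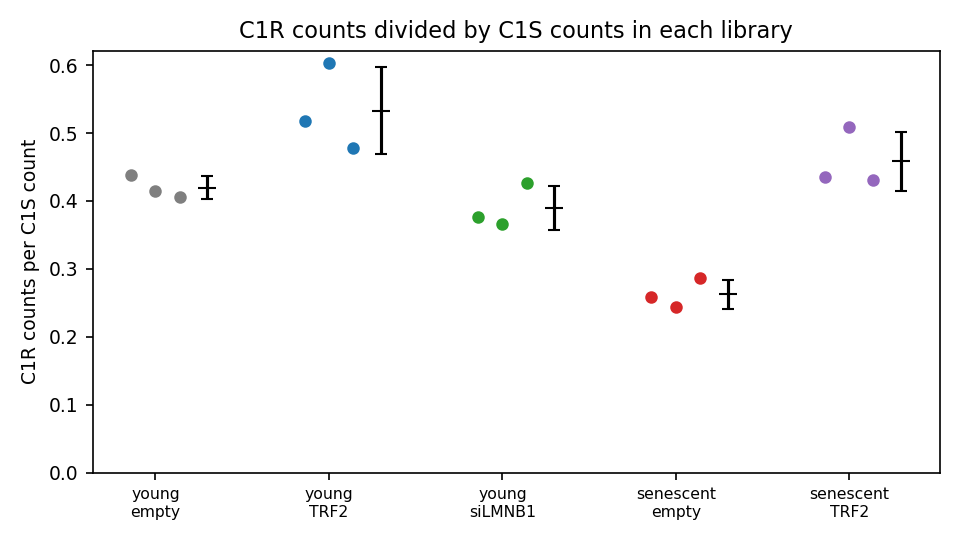
C1R counts divided by C1S counts (linear axis from 0) in each of the 15 libraries, with points in the order of replicates 1 to 3 and mean and SD (n = 3) beside them. The 3 senescent libraries with the empty vector lie between 0.244 and 0.286, below the other 12.

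Other complement genes were followed in a list of 20, of which 10 were kept by the filter. C1QA, C1QB and C1QC, whose products form the recognition part of the C1 complex, had 2 or 3 counts each over all libraries. With the empty vector 5 of the 10 rose in senescence and 1 fell, where 32.7% of all tested genes rose and 31.9% fell, with a median log2 fold change of 1.82 against 0.02 over all tested genes. C7, a part of the membrane attack complex, rose by 5.31 ± 0.29 and C3, the central component, by 4.12 ± 0.42. C4A and C4B, the targets of C1S, rose by 2.32 and 3.51, but the pair are near-identical copies. Reads that match both may be missing from the counts or assigned to the wrong copy. With TRF2, 5 rose and 1 fell (median 0.81, against −0.02), C7 by 3.45 and CFD, a protease of the alternative pathway, by 1.86. C5, which starts the membrane attack complex, was the gene that fell in both, by 0.84 and 0.56. C4B had only 146 counts over the 15 libraries. The 5 leukocyte markers, of cells that can make C3 and C1q, summed to 1.44 to 3.50 CPM in the senescent and 0.0294 to 0.505 in the young libraries. CD14, the only one kept by the filter, rose by 3.64 with the empty vector and 4.01 with TRF2, while PTPRC, which defines leukocytes, had 8 counts and CD3E none in all libraries. The part of such cells in the complement values was not tested.

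With siLMNB1, 6 of the 10 complement genes rose, where 16.4% of all tested genes did, and none fell (median 0.96, against 0.04). C4B rose by 2.79, C7 by 1.98 and C4A by 1.95, and MASP1, a protease of the lectin pathway related to C1R and C1S, by 1.24 ± 0.29 (adjusted p = 0.00375). C3 was at −0.43 there. In senescent cells, TRF2 was accompanied by lower C3 (−1.54) and C7 (−0.93) and higher C1RL (0.63). Over all genes 1782 passed in this comparison, but 2 with only the libraries compared. That limit holds for every list gene named as higher or lower with TRF2 in senescent cells, here and below. Their calls under that fit are not given.

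Inhibitors of complement moved both ways. Of 10 listed, 6 were kept. SERPING1, the inhibitor of C1R and C1S, rose by 2.76 ± 0.24 in senescent cells with the empty vector (adjusted p = 4.5e-08), from 2.66 ± 0.815 to 18.0 ± 2.78 CPM, and by 1.62 with TRF2, while it was at 0.24 with siLMNB1. CLU rose in senescence with either vector, by 1.05 with TRF2, and CD59, which blocks the membrane attack complex, fell by 0.94 and 1.01 in senescence. In all, 3 rose and 2 fell with the empty vector (median 0.23) and 4 rose and 2 fell with TRF2 (median 0.36). With siLMNB1, 1 rose and 2 fell (median −0.01), and CD46, a cell surface inhibitor, fell by 2.09. In senescent cells SERPING1 fell by 0.83 with TRF2.

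**Figure D4:**
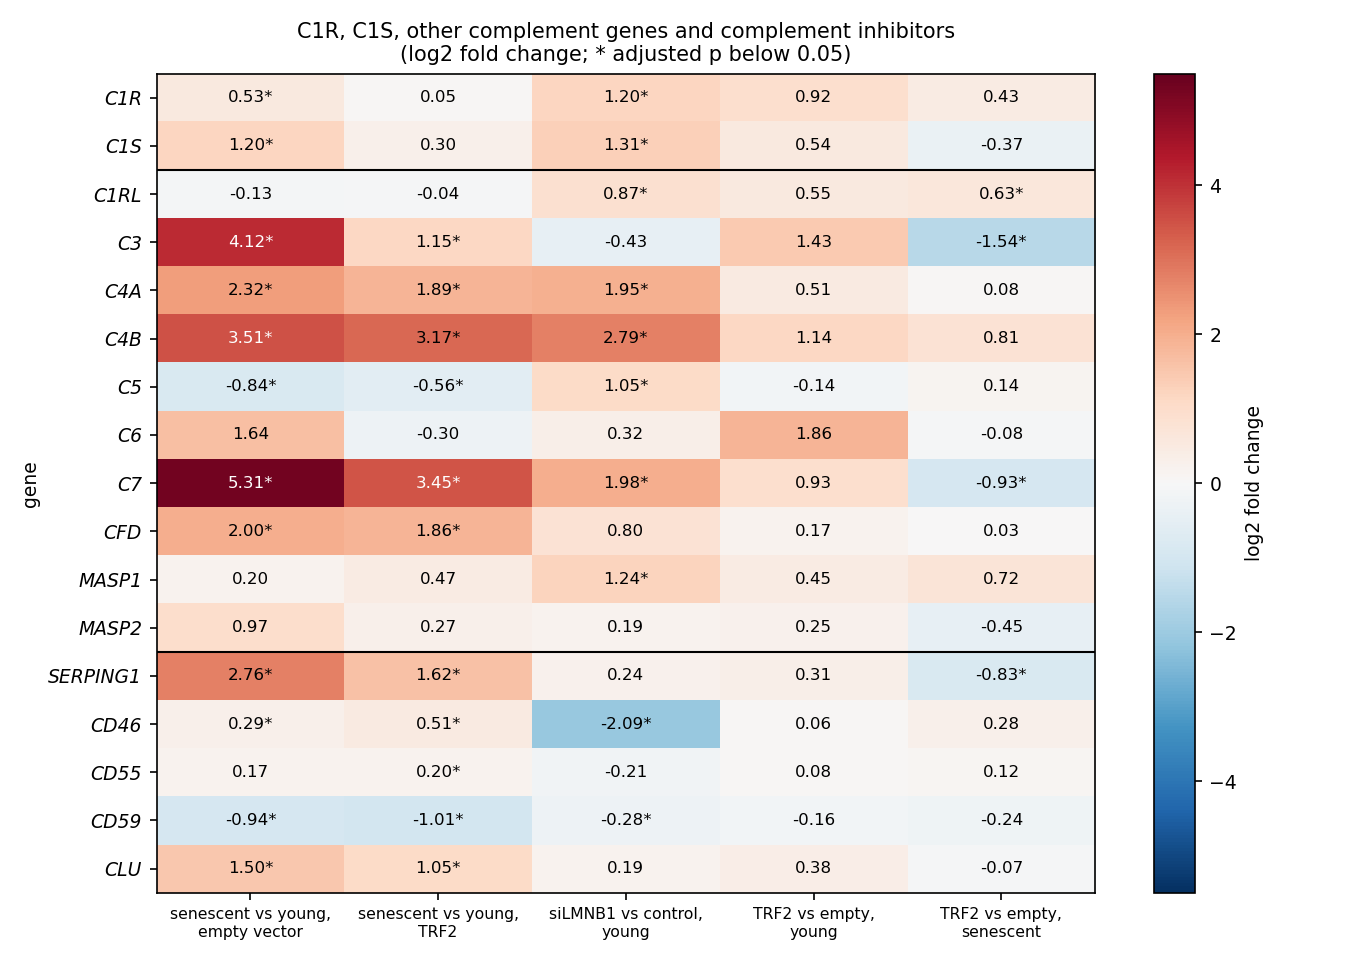
Log2 fold changes of C1R and C1S (top), 10 other complement genes (middle) and 5 complement inhibitors (bottom) in the 5 comparisons, as colours and numbers, with a star where the adjusted p was below 0.05. C4A, C4B and C7 rose in the first 3 columns and SERPING1 in the first 2.

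C1R and C1S are known to be induced by interferon gamma, and 15 genes of that response were listed, 12 of them kept. With the empty vector 4 of the 12 rose and 5 fell in senescence (median −0.49), near the 32.7% and 31.9% of all tested genes. GBP1 fell by 1.24, PSMB9 by 0.88 and GBP2 by 0.80, and CIITA rose by 1.07. With TRF2, 3 rose and 3 fell (median −0.14). CXCL10 fell by 2.21 and TAP1 rose by 0.75. With siLMNB1, 2 rose and 1 fell (median −0.00): PSMB9 rose by 0.60 and TAP1 by 0.47, and CXCL10 fell by 1.04. In senescent cells 3 were higher with TRF2, where 4.87% of all tested genes were, GBP1 by 1.26, GBP2 by 1.12 and PSMB9 by 0.88. The senescent libraries with the empty vector were uneven for GBP1 (24.7 ± 19.6 CPM, SD, n = 3) and GBP2 (6.16 ± 4.12).

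DSP rose in senescence with TRF2 and did not pass the test with the empty vector, where its replicates disagreed. With the empty vector it was at 24.2, 21.3 and 24.8 CPM in young and 39.3, 30.9 and 17.7 in senescent cells. Senescent replicates 1 and 2 were above and replicate 3 below all young libraries, and the log2 fold change of 0.32 did not pass the test (95% interval −0.09 to 0.73, adjusted p = 0.160). Without senescent replicate 3, which also had the strongest GC trend, it was 0.56 and passed (adjusted p = 1.9e-04). With TRF2, DSP was at 19.4, 24.1 and 21.4 CPM in young and 53.3, 50.1 and 49.8 in senescent cells. The senescent libraries lay above the young ones without overlap, by 2.36-fold (log2 fold change 1.24 ± 0.194, adjusted p = 4.3e-05), and DSP was a DEG.

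Within senescent cells, DSP was 1.75-fold higher with TRF2 than with the empty vector (log2 fold change 0.80 ± 0.193, adjusted p = 0.0147), and each of the 3 libraries with TRF2 exceeded each without. The call was lost when only the 6 libraries compared were fitted (adjusted p = 0.201) and without replicate 1 with TRF2 (adjusted p = 0.0581). In young cells DSP was at −0.12 with TRF2 (95% interval −0.53 to 0.30). With siLMNB1 it was at 31.5, 28.1 and 25.2 CPM, above all 3 control libraries, but the log2 fold change of 0.27 (95% interval −0.14 to 0.68) did not pass (adjusted p = 0.311), although it did without senescent replicate 3 with the empty vector (adjusted p = 0.0365). Senescent cells with TRF2 thus had the highest level of DSP (51.1 ± 1.94 CPM), apart from the other groups, which had means of 21.6 to 29.3 CPM. Among these, the wide range of senescent cells with the empty vector (17.7 to 39.3) overlapped that of each young group, and siLMNB1 lay above the other young groups, whose ranges overlapped.

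Desmosome genes other than DSP were 13, of which 7 were kept. With the empty vector 3 of the 7 rose and 3 fell in senescence (median 0.21), where 32.7% and 31.9% of all tested genes did. JUP, plakoglobin, which binds desmoplakin, rose by 2.48 ± 0.09, PKP2 by 2.43 and PERP by 1.09, while the cadherin DSC3 fell by 4.45. With TRF2, 3 rose and 2 fell (median 0.06). PKP2 rose by 3.89, JUP by 2.07 and PERP by 1.31, and DSC3 fell by 5.94. PKP2 and DSC3 rest on 303 and 320 counts over all libraries. With siLMNB1, DSG2, a desmosomal cadherin, rose by 1.18 and JUP by 0.69 (2 rose, none fell, median 0.30). JUP was the only gene of the pathway lists that passed with TRF2 in young cells, by 0.59 ± 0.09 (adjusted p = 0.0112). Over all genes 28 passed there, but only 1 without young replicate 1 or without young replicate 2 with TRF2. Whether JUP keeps its call in these refits is not given, so the call may rest on single libraries. In senescent cells PKP4 and PERP were higher with TRF2, by 0.40 and 0.39.

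The plakin relatives of DSP and the intermediate filament genes, 12 listed and 10 kept, moved both ways. With the empty vector 2 of the 10 rose and 3 fell in senescence (median −0.13), shares under or near those of all genes, KRT19 rising by 1.24 and KRT8 by 0.94, the plakin PPL falling by 1.94 and DES by 1.52. With TRF2, 3 rose and 3 fell (median 0.07), KRT8 rising by 1.11 and KRT7 by 1.02. There PPL fell by 1.21, and DES, with 144 counts in all, fell by 2.34. With siLMNB1, 2 rose and 3 fell (median −0.36): KRT7 and KRT19 rose by 1.64 and 0.88, and VIM, the main filament protein of fibroblasts, fell by 0.62 and KRT18 by 0.51. In senescent cells, the plakins DST and MACF1 were higher with TRF2, by 0.69 and 0.62, as DSP was, and KRT19 fell by 1.12.

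FRG1, whose product is linked with RNA processing and actin, fell in senescence with either vector. It was at 26.3, 24.6 and 20.3 CPM in young and 15.2, 13.5 and 17.1 in senescent cells with the empty vector. The groups did not overlap, and the log2 fold change was −0.63 ± 0.117 (adjusted p = 1.8e-04). With TRF2 it was at 25.9, 24.2 and 25.1 CPM in young and 15.2, 17.1 and 14.9 in senescent cells, again without overlap (−0.67 ± 0.116, adjusted p = 1.2e-04). The fall was under the fold threshold of a DEG. With offsets for the GC percent and length of genes it passed too, at −0.39 and −0.35. With siLMNB1, FRG1 was at 21.7, 18.3 and 18.9 CPM, overlapping the control (−0.27, 95% interval −0.52 to −0.03, adjusted p = 0.0786). It passed without control replicate 3 (−0.37, adjusted p = 0.0334) or senescent replicate 3 with the empty vector (−0.28, adjusted p = 0.0254). With TRF2, FRG1 was at 0.08 in young (95% interval −0.17 to 0.32) and 0.04 in senescent cells (−0.21 to 0.29).

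FRG1 has many partial copies, and reads that match several of them may be missing from the counts or assigned to the wrong copy. Besides FRG1, 10 genes of the table carry its name, 9 of them pseudogenes, and 4 pseudogenes were kept. FRG1CP, on chromosome 20, whose exonic bases all lie in another gene too, had the highest mean level of these, 12.6 CPM in young and 12.5 in senescent cells with the empty vector (log2 fold change −0.01, adjusted p = 0.960). FRG1BP, the next, was at −0.25 (adjusted p = 0.168). FRG1EP, with 129 counts in all, was the only copy that passed in senescence, from 0.0338 to 0.536 CPM with the empty vector (3.83 ± 0.84, adjusted p = 8.2e-04). With siLMNB1, FRG1CP fell by 0.31 (adjusted p = 0.0352).

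The differences between the effects of TRF2 in senescent and in young cells did not pass the test for any of the 4 members, with 1.13% of all tested genes passing. Those 179 genes became 8 with only the libraries compared, 6 without young replicate 2 with the empty vector and 2089 without senescent replicate 1 with the empty vector, and each of the 15 libraries left out moved the number by over 1.5 times. By edgeR 0 passed, 2 had an unadjusted p below 0.05 and DESeq2 called 2, C1S and DSP, where it called 486 of 15253 genes in all. The difference was −0.90 for C1S (95% interval −1.37 to −0.44, adjusted p = 0.0589), 0.92 for DSP (SE 0.27, adjusted p = 0.121), −0.48 for C1R (−1.14 to 0.17, adjusted p = 0.453) and −0.03 for FRG1 (−0.38 to 0.31, adjusted p = 0.941). With the GC and length offsets, C1S (−0.997, adjusted p = 0.021) and DSP (0.82, adjusted p = 0.035) passed. Without senescent replicate 1 or 3 with the empty vector both passed too, at −0.87 and −0.82 for C1S and at 1.20 and 0.68 for DSP.

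TERT was not detectable at this depth. It had 1 count, in senescent replicate 2 with TRF2, among 482924834 counts of all 15 libraries. In senescent cells with the empty vector, 0 of 85878204 counts allow a level of up to 0.0349 CPM (3 counts over the group, counting error only). TERC, the RNA subunit of telomerase, had 8 counts. Of 12 genes for assembly and maturation of telomerase, 11 were kept. In senescence with the empty vector 6 of the 11 fell, where 31.9% of all tested genes fell, and none rose (median −0.35), DKC1, dyskerin, by 1.05 ± 0.08, its partner GAR1 by 0.97, PINX1 by 0.75 and SHQ1 by 0.71. With TRF2, 8 fell, where 30.1% of all genes did, and none rose (median −0.47), GAR1 by 1.14, DKC1 by 1.07, PINX1 by 0.66 and RUVBL1 by 0.53. With siLMNB1, PARN rose by 0.40 and DKC1 fell by 0.29 (median −0.06). In senescent cells NOP10, NHP2 and RUVBL1 fell with TRF2, by 0.48, 0.43 and 0.42.

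SORBS2 had 17 counts in all, in 7 of the 15 libraries. The counts were 0, 1 and 0 in young cells with the empty vector, 0, 1 and 1 with TRF2 and 0, 1 and 5 with siLMNB1. Senescent cells had 1, 7 and 0 with the empty vector and 0 in all 3 libraries with TRF2. The highest single value, 7, came from 1 library, and the 8 counts of its group correspond to a pooled level of 0.0932 CPM (exact Poisson 95% interval 0.0402 to 0.184). This interval overlapped that of young cells with the empty vector (0.00028 to 0.0622), and both cover counting error only.

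All 14 relatives and binding partners of SORBS2 that were listed were kept by the filter. In senescence with the empty vector 5 of the 14 rose and 3 fell (median 0.16), where 32.7% and 31.9% of all tested genes did, the kinase PTK2B by 0.85, DNM2, dynamin 2, by 0.75 and SORBS3, vinexin, by 0.70, while AFDN fell by 0.71. With TRF2, 7 rose and 2 fell (median 0.49), DNM2 by 0.77, PTK2B by 0.71 and SORBS3 by 0.64, AFDN falling by 0.95. With siLMNB1, PTK2B rose by 1.71 and WASF1 by 0.36 (2 rose, none fell, median −0.01). In senescent cells PALLD rose by 0.50 with TRF2 and PXN fell by 0.32.

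Over the 8 pathway lists together, 74 genes were tested. With TRF2 in young cells 1 of them passed by edgeR, 11 had an unadjusted p below 0.05 and DESeq2 called 2. Over all genes, 28 of 15799 passed by edgeR and DESeq2 called 138 of 15843. The share of all genes with an unadjusted p below 0.05 is not given, here or for the members.

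Further genes linked with telomere position were 6, of which DUX4 and FRG2 had 0 counts in every library. With the empty vector 2 of the 4 kept rose and 1 fell in senescence (median −0.03). ISG15, a ubiquitin-like protein near the end of 1p, rose by 0.99 ± 0.22 (adjusted p = 0.00105), SLC25A4, a mitochondrial carrier of 4q, by 0.58, and PDLIM3 fell by 1.74. With TRF2, SLC25A4 rose by 0.53 and PDLIM3 fell by 1.52 (median 0.09), and with siLMNB1 they moved by 0.36 and −0.65 (median 0.00). ISG15 was at −0.27 with TRF2 in senescence. Within senescent cells TRF2 was accompanied by lower ISG15 (−0.87) and higher FAT1 (1.18), a cadherin gene of 4q.

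Genes around the members were counted next. Within 1 Mb of C1R and C1S, 51 genes were tested. In senescence with the empty vector 23 were higher (45.1%, against 32.7% of all tested genes) and 12 lower (23.5%, against 31.9%), with a median log2 fold change of 0.36. With siLMNB1, 14 were higher (27.5%, against 16.4%) and 6 lower (11.8%, against 16.1%), with a median of 0.09. Among the 18 of them that share no exonic bases, 11 were higher and 4 lower in senescence and 3 higher and 2 lower with siLMNB1. Of the genes overlapping others, NOP2 and CHD4, named after their values were seen, were at 39.3 to 46.8 and 239 to 280 CPM in the 9 young libraries and at 0.112 to 0.319 and 10.2 to 14.3 in the senescent ones. EMG1, named likewise and counted among the genes that were higher, went the other way, from 1.95 to 4.10 CPM in the young to 26.0 to 40.4 in the senescent libraries. The nearest tested protein-coding genes were C1RL and LPCAT3, an enzyme of phospholipid remodelling, which overlaps the C1S gene. LPCAT3 was at 0.81 (adjusted p = 0.002) in senescence with the empty vector and 0.39 (adjusted p = 0.139) with siLMNB1, and 66.0% of its exonic bases lie in another gene too.

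Within 1 Mb of DSP, 10 genes were tested. In senescence with the empty vector 5 were lower and none higher (median −0.32), and with TRF2, where DSP was a DEG, 3 were lower and none higher (median −0.18), while 31.9% and 30.1% of all tested genes were lower in these comparisons. Among the 5 of them that share no exonic bases, 3 were lower with the empty vector and 1 with TRF2, none higher. SNRNP48, a spliceosome gene 3.48 kb from DSP, was at −0.32 (adjusted p = 0.039) and −0.08 (adjusted p = 0.635), and RIOK1, 123 kb away on the other side, at −0.47 and −0.15 (adjusted p = 0.237). Of the 40 tested genes between DSP and the end of 6p, 14 were higher and 8 lower with the empty vector, where 32.7% and 31.9% of all tested genes were, and 17 higher and 8 lower with TRF2 (28.2% and 30.1%), medians 0.13 and 0.27.

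Of the 78 tested genes between C1S and the end of 12p, 30 were higher (38.5%, against 32.7%) and 25 lower (32.1%, against 31.9%) in senescence with the empty vector (median 0.25) and 15 higher and 12 lower with siLMNB1 (median 0.01). Near TERT, 21 genes were tested within 1 Mb, of which 10 were higher (47.6%, against 32.7%) and 6 lower (28.6%, against 31.9%) in senescence with the empty vector (median 0.30). Among the 9 of these that share no exonic bases, 4 were higher and 2 lower. The nearest to TERT were CLPTM1L, 22.7 kb away, at 0.64 (adjusted p = 6.3e-06), and SLC12A7, a potassium-chloride cotransporter 141 kb towards the end of 5p, at 3.06 in senescence with the empty vector, 2.79 with TRF2 and 0.96 with siLMNB1, all passing. Within 1 Mb of SORBS2, 2 of 16 tested genes were higher (12.5%, against 32.7%) and 7 lower (43.8%, against 31.9%) in senescence with the empty vector (median −0.39), and the nearest were PDLIM3, an actin-binding protein, at −1.74, and TLR3, an RNA sensor, at −0.96. Among the 5 of the 16 that share no exonic bases, 1 was higher and 3 lower. Within 1 Mb of FRG1, none of the 32 genes in the table was kept by the filter, nor any of the 23 between FRG1 and the end of 4q. The nearest tested protein-coding gene was TRIML2, 1831 kb away, at 0.83 (adjusted p = 0.015) in senescence with the empty vector and 1.43 with siLMNB1.

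**Figure D5:**
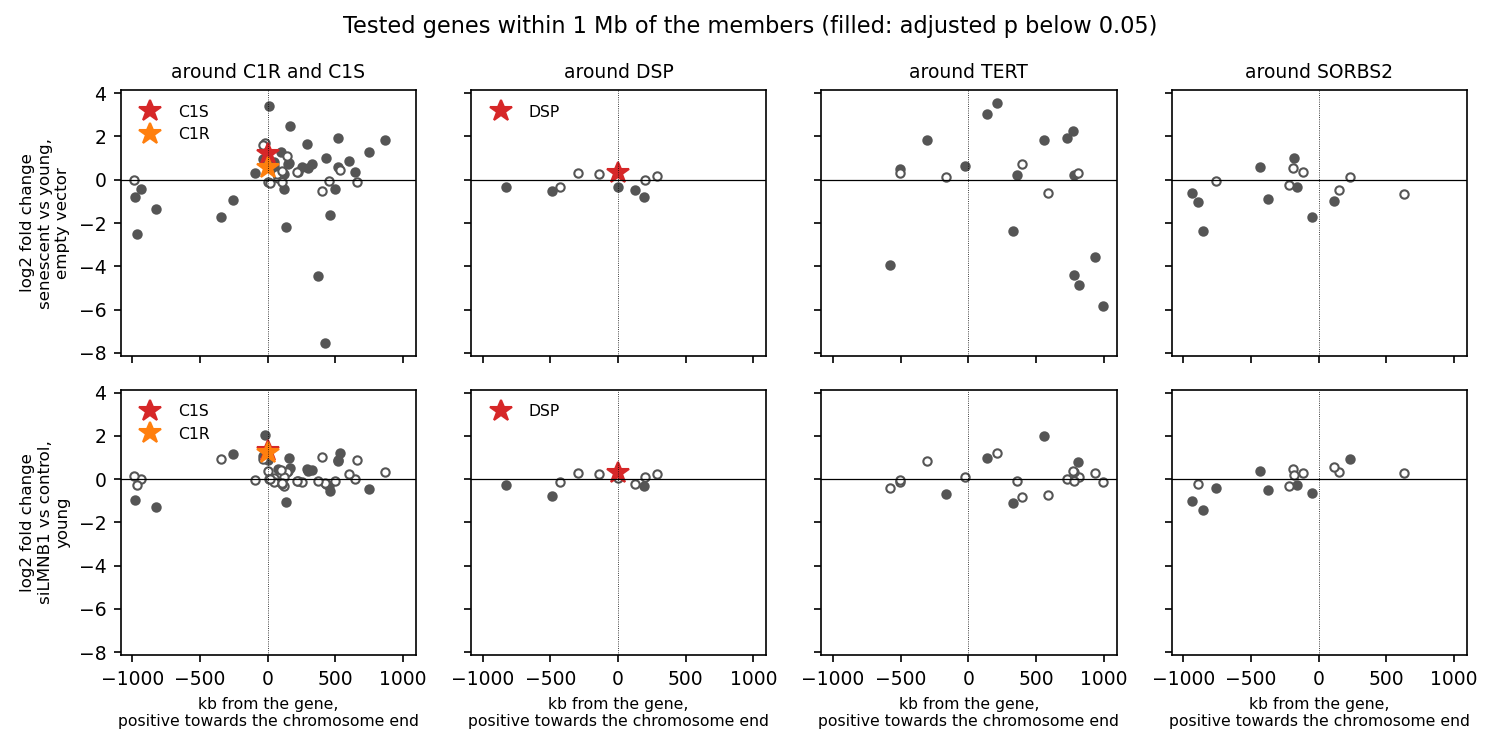
Log2 fold changes of all tested genes within 1 Mb of C1R and C1S, DSP, TERT and SORBS2, against the distance from the gene in kb (positive towards the chromosome end), in senescent against young cells with the empty vector (top) and siLMNB1 against control (bottom). Stars mark the members, filled circles genes with an adjusted p below 0.05, and the lowest points of the top row are NOP2 and SDHA, which share exonic bases with other genes.

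The genes whose levels ran most like those of a member were found by Pearson's r of log2(CPM + 1) over the 15 libraries, among protein-coding genes kept. These are descriptions over libraries that share groups and deposits. For C1S they were TCN2 (0.96), CPE (0.95) and TPPP3 (0.92), on chromosomes 22, 4 and 16. For C1R they were COG7 (0.91), STAT2 (0.88), a transcription factor of the interferon response, and TCF7L1 (0.88). For DSP they were GRK3 (0.98), MSI2 (0.97) and SORT1 (0.97), and for FRG1 the splicing factor gene SNRPA1 (0.96), DBI (0.95) and NONO (0.95). Between members, r was 0.75 for C1R and C1S, 0.29 for C1R and DSP, −0.56 for C1S and FRG1 and −0.67 for DSP and FRG1. By Spearman's rank correlation, the genes most alike changed for every member but C1R, which kept the same genes. C1S then had VAV2, STXBP2 and CLBA1, none of them named above. DSP had GRK3, SEC16A and DIXDC1, and FRG1 had NACA, DBI and P2RY11.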

How the data were processed

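RNA-seq counts of 15 libraries were analysed. Per the labels, Trimmomatic was used for trimming and STAR for mapping to GRCh38 and counting, and the authors deposited whole-number counts for each gene with no normalization. The annotation release and strand setting for counting are not given in the sources used here. Groups came from the labels. Genes were placed with GENCODE 44, in which 324 genes of the table, with 0.0563% of the counts, are absent. Counts were normalized by TMM, filtered with filterByExpr and fitted with edgeR 4.0.16 (R 4.3.3, limma 3.58.1) in one model with a mean per group over 15 libraries, and tested with the quasi-likelihood test. Standard errors were obtained from the test statistic, and 95% intervals used its degrees of freedom. CPM levels used TMM-scaled library sizes, which ranged around totals of 26725885 to 43116046. Alternatives were DESeq2 1.42.0 (size factors and Wald test), no filter, only the libraries compared, a replicate block, loess offsets for GC content and length (span 0.3), other windows around the members, and each library left out. On simulated data for senescent against young cells with the empty vector, edgeR called 95% of 200 genes with a true log2 fold change of 1, with 3 false calls, when 14647 genes were tested. With a GC trend added it made 7043 false calls over 14684 genes, and 10 over 14701 with the offsets. The senescent libraries carried a GC trend. Even so, the counts in lists and around members and the shares of all genes come from the fit without offsets. With the offsets, 9122 instead of 10217 genes passed in senescence with the empty vector. Over the lists and comparisons, 5 results then moved and 35 were rated the same.

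The members and the 8 pathway lists (other complement genes, complement inhibitors, interferon gamma response, desmosome, plakins and intermediate filaments, telomerase assembly, relatives and partners of SORBS2, other telomere position genes) and 5 marker lists were chosen with earlier results of these data known. Named were all members, up to 4 genes per list and comparison that passed with the largest log2 fold changes, the nearest tested protein-coding gene on each side of a member and the 3 genes most like it. The comparison of genes by shared exonic bases was added after seeing the data. Python 3.11.15 with numpy 2.4.6, pandas 2.3.3, scipy 1.17.1 and matplotlib 3.10.9 served for tables and figures. The replicate numbers were not used to pair libraries in the main model, since no pairing is stated. Some named genes and a sequence are not reported here.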

Additional observations from a re-analysis of the deposited data

Results flagged for a closer look

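Among the listed genes and the proliferation genes, 3 differed in their response to TRF2 between senescent and young cells by edgeR's interaction test. The difference of log2 fold changes was −2.97 for C3 (adjusted p = 0.0271), −1.86 for C7 (adjusted p = 0.0417) and −0.79 for the topoisomerase gene TOP2A (adjusted p = 0.0417). C3 was at 0.293 ± 0.169 CPM in young and 5.11 ± 0.964 in senescent cells with the empty vector, and at 0.787 ± 0.299 and 1.75 ± 0.689 with TRF2 (SD, n = 3). C7 was at 0.502 ± 0.131 and 19.8 ± 6.32 with the empty vector and at 0.942 ± 0.325 and 10.4 ± 1.69 with TRF2. These calls depended on single libraries. With each of the 15 libraries left out in turn, C3 passed in 7 refits (−3.52 to −2.66, adjusted p up to 0.0899), C7 in 3 (−2.07 to −1.57, up to 0.148) and TOP2A in 2 (−0.94 to −0.62, up to 0.128). Each value kept its sign.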

How the results depend on the processing

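The sources do not say whether the replicate numbers mark shared cultures or days. Deviations of libraries with the same number had correlations of −0.105 to 0.221, with at most 1 of 3 pairs over 0.1. With so few libraries, these values cannot exclude shared cultures or days. A replicate block changed no call of the 4 members in any comparison (DSP in senescence with the empty vector 0.29, C1R 0.55, adjusted p = 0.0432). No member that passed turned direction under any alternative.

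Several calls changed side, and the cause was not tested. Values are log2 fold changes. In senescence with the empty vector, DSP passed without the filter on low counts (0.32), with the GC and length offsets (0.36) and with block and offsets together (0.35), and lay between 0.042 and 0.56 with 1 library left out. C1R no longer passed with the offsets (0.27) or with block and offsets (0.28), and lay between 0.38 and 0.67 with 1 library left out. With TRF2, C1S passed without the filter (0.30). Leaving out 1 library gave 0.17 to 0.57 for C1S, −0.14 to 0.45 for C1R, and 2 to 4 members passing. With siLMNB1, DSP (0.27) and FRG1 (−0.28) passed when only the libraries compared were fitted, so that 4 members passed, and FRG1 also passed with the offsets (−0.30) and with block and offsets (−0.30). Leaving out 1 library gave 0.19 to 0.35 for DSP, −0.37 to −0.19 for FRG1 and 2 to 4 members passing.

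With TRF2 in young cells, C1R passed by DESeq2 (0.89), without the filter (0.92) and with only the libraries compared (0.92), and C1S without the filter (0.54). The numbers of members passing were 1, 2 and 1. Leaving out 1 library gave 0.51 to 1.11 for C1R and 0 to 1 members. With TRF2 in senescent cells, DSP did not pass with only the libraries compared (0.81), which left 0 members, while C1R (0.44) and C1S (−0.36) passed without the filter, which made 3. Leaving out 1 library gave 0.55 to 1.08 for DSP, −0.45 to −0.29 for C1S and 0 to 2 members. The difference of the TRF2 effects passed for DSP by DESeq2 (0.94), without the filter (0.92), with the offsets (0.82) and with block and offsets (0.83), and for C1S under the same alternatives (−0.88, −0.90, −0.997 and −0.998), so that 2 members passed under each. Leaving out 1 library gave 0.68 to 1.20 for DSP, −1.03 to −0.63 for C1S and 0 to 2 members.

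The fall of FRG1 in senescence passed under all 7 alternatives with either vector (−0.65 to −0.38 and −0.67 to −0.34), and C1S rose under all 7 with the empty vector (1.19 to 1.28). The depth limits TERT and SORBS2, which the filter removed.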
